A study of Mus musculus with 48 samples.

Results

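The striatum of 6-month-old mice carrying 1 Q140 allele, an expanded CAG repeat knocked into the mouse Htt gene as a model of Huntington's disease, was compared with the striatum of wild type mice of the same age and C57BL/6 background. RNA was sequenced from 8 Q140 libraries (4 female, 4 male) and 7 wild type libraries (3 female, 4 male), taken by their genotype labels out of 48. The other libraries come from mice with 1 or both Msh3 alleles mutated, with or without Q140, and serve here only in the shared estimate of the spread. Neither compared group carries an Msh3 mutation by its label, so the comparison asks what the repeat changes while both Msh3 alleles are intact. Q140 sits in the endogenous gene and so acts in every cell that uses Htt. The labels do not say that each library is a separate mouse; if some were not, the p-values measure in part technical spread. The count table lists 48795 genes, and 19975 of them passed the filter on low counts and were tested.

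Medium spiny neurons (MSN) are the projection neurons of the striatum and most of its neurons. Direct-pathway MSN carry the dopamine receptor D1, which raises cyclic AMP, and indirect-pathway MSN carry the D2 receptor, which lowers it. MSN are the cells most affected in Huntington's disease. Msh3 is a mismatch repair protein that promotes the growth of CAG repeats in somatic cells.

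Msh3 and Htt were looked at first. Msh3 was at 29.5 to 33.2 CPM in Q140, median 32.5, and 29.1 to 33.0 CPM in wild type, median 31.1, with overlapping groups and no call (log2 fold change 0.050, SE 0.04, adjusted p = 0.417). On library totals alone Msh3 was called higher in Q140 (log2 fold change 0.13, adjusted p = 0.0141). Htt was at 170.0 to 213 CPM in Q140, median 193, and 204 to 214 CPM in wild type, median 209.5, with overlapping groups, and it fell by 0.13 on the log2 scale (SE 0.042, adjusted p = 0.0249). The call of Htt was lost on library totals alone and without Q140 F1, Q140 F4 or Q140 M1 (adjusted p up to 0.0749). A count per gene does not separate the knock-in allele from the normal one, so Htt does not check the genotype labels. Here and below CPM are counts per M reads after scaling by the trimmed mean of M values (TMM), and a gene is said to have risen, fallen or been called where edgeR's quasi-likelihood test gave a Benjamini-Hochberg adjusted p below 0.05.

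Total counts ran from 39.5 to 50.9 M (mega) reads per library, median 44.9 M, and no pair of libraries was a copy. The TMM factors did not overlap between the groups, at 1.009 to 1.09 in Q140 and 0.9699 to 1.002 in wild type, so the split of small changes into higher and lower depends on the scaling. Genes within 10 Mb of Htt were called about as often as others, with 23 of 215 higher (10.7%) and 26 lower (12.1%) in Q140, beside 114 and 127 of 1217 on the rest of chromosome 5.

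In Q140 3969 of the 19975 genes were called (19.9%), 1926 higher (9.64%) and 2043 lower (10.2%). Most changes were small, with a median size of 0.22 on the log2 scale among genes that rose and 0.24 among genes that fell. More than 1.5-fold was reached by 196 genes that rose and 233 that fell, and more than 2-fold by 60 and 80. The lowest Q140 library lay above the highest wild type library for 335 genes (1.68%), and the highest Q140 library below the lowest wild type library for 369 genes (1.85%). Such genes are called separated below. On library totals alone, that is with the same edgeR test and genes but without TMM, 6180 genes were called, 5076 higher and 1104 lower, and the median log2 fold change of all genes was 0.10 in place of 0.01. Of the genes described below, Bap1, C1qa, Cdkn1a, Gabbr1, Gabrb1, Htt, Ndufs3, Pcdhb8, Pcdhgc3, Pde1c, Pde8b, Ptprz1, Rbbp7, Rxra, Scn2b, Tacr1, Ugt8a, mt-Nd2 and mt-Nd6 were called lower with TMM and not called on library totals. With the scaling of DESeq2 (relative log expression) 1725 rose and 2182 fell. Counts over gene lists below are to be read beside the shares of all genes tested, 9.64% higher and 10.2% lower with TMM. List counts on library totals alone are to be read beside 5076 higher and 1104 lower of all 19975 genes.

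**Figure D1:**
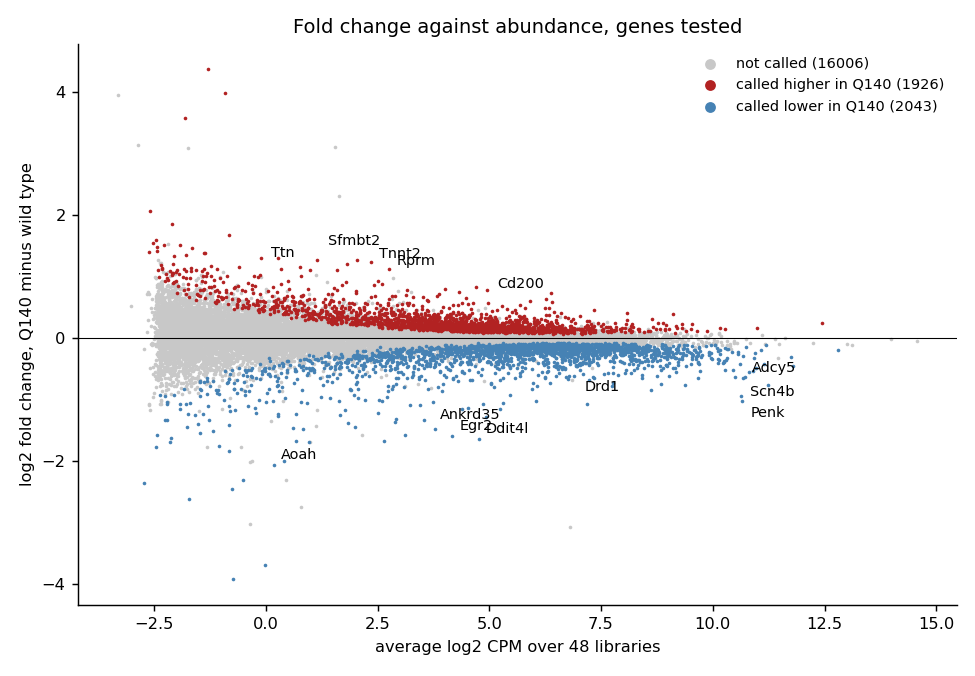
Log2 fold change of Q140 over wild type (y axis) against the average abundance over 48 libraries (x axis, log2 CPM) for the 19975 genes tested. Each point is a gene, coloured where it was called higher (1926, red) or lower (2043, blue) in Q140; blue points prevail among the most abundant genes, where 336 rose and 1057 fell in the highest quintile.

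Genes that fell were mostly abundant ones. In the quintile of genes with the most reads 336 rose and 1057 fell. The next quintile held 587 that rose and 429 that fell, the middle one 567 and 285, the one below it 315 and 196, and the quintile with the fewest reads 121 and 76. The share called was 4.93% in the lowest and 34.9% in the highest quintile. List counts below were not matched for abundance, and many signalling and synaptic lists hold abundant genes. The lists also share members, so their counts are not separate results. Kcnh4, Kcnab1, Pde10a, Pde1b, Rasd2, Rasgrp2, Itpr1 and Hpca, for example, are on the MSN identity list and again on a list of their protein family or function. Protein-coding genes were split almost evenly, with 1683 of 15118 higher and 1881 lower. Of 2795 long noncoding and unclassified transcripts 192 rose (6.87%) and 102 fell (3.65%).

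The promoters of 5 genes with large changes are shown so that their base makeup can be read beside the values that follow. Each is a RefSeq window on GRCm38 from 250 bases before to 50 after the annotated start, written 5′ to 3′ along the gene. Capitals mark 4 motifs on either strand, and neighbouring or overlapping matches run together. The GC box, which Sp1 binds, was searched as GGGCGG. The TATA box, which places the start of many genes, was searched as TATAAA. For the E box, which clock factors and other helix-loop-helix proteins bind, the letters were CACGTG. The cyclic AMP response element (CRE), which CREB binds, was searched as TGACGTCA. Adcy5 (chr16:35154614-35154913, plus strand), Ankrd35 (chr3:96669881-96670180, plus strand), Ddit4l (chr3:137623422-137623721, plus strand) and Egr2 (chr10:67535249-67535548, plus strand) fell, and Rprm (chr2:54085503-54085802, minus strand) rose.
Adcy5: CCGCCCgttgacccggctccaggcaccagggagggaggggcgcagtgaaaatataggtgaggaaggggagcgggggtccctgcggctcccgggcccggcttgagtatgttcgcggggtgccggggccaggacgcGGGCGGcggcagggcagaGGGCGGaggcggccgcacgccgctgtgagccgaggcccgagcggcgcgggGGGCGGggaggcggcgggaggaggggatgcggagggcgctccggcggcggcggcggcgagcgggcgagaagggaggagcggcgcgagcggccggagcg
Ankrd35: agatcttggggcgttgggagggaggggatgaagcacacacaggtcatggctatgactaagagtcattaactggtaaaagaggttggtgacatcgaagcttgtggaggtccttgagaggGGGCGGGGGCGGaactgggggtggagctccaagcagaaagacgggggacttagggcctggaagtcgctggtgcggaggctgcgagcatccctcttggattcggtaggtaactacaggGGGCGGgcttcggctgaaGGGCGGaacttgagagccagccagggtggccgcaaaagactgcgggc
Ddit4l: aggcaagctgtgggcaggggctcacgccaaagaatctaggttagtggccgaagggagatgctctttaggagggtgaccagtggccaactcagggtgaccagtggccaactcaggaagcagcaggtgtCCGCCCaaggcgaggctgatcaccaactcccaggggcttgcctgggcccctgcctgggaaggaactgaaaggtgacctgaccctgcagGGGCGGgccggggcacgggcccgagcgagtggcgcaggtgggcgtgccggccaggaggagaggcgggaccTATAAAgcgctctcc
Egr2: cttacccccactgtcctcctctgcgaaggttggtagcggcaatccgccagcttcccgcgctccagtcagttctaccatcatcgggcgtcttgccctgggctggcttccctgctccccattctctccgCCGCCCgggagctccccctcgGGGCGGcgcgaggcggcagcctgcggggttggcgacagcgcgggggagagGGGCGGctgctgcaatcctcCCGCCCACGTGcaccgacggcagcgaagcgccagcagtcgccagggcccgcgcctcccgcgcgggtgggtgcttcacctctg
Rprm: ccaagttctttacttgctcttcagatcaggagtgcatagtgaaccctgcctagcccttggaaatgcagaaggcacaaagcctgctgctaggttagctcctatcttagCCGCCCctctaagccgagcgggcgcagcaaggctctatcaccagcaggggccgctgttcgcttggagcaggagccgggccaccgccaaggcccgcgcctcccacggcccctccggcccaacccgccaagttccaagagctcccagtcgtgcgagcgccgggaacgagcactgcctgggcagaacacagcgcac
The windows hold 44 CpG dinucleotides in Adcy5, 32 in Egr2, 19 in Rprm and 14 each in Ankrd35 and Ddit4l. All 5 have a GC box, Ddit4l has a TATA box as well and Egr2 an E box that overlaps a GC box. A window was found for 12377 of the genes tested, with a median of 20 CpG. The median was 19 among genes that rose, 23 among genes that fell and 19 among genes not called. It was lower among genes called with over 1.5-fold change, at 9 for 109 that rose and 11 for 141 that fell. These sets were not matched for abundance. Called changes had a median size of 0.91 on the log2 scale in the quintile with the fewest reads and 0.18 in that with the most. A GC box was found in 61.1% of all windows, in 63.4% of those that rose and in 68.5% of those that fell. A TATA box was found in 7.51% of all windows, a CRE in 3.09% and an E box in 9.61%.

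Genes that mark MSN fell nearly throughout. Of 32 members of the MSN identity list 29 fell and none rose, with a median log2 fold change of -0.45 beside 0.01 over all genes tested, and 15 were separated, while 1 rose and 29 fell on library totals alone. Strip2, Tmem158 and Cpne5 were not called. In bulk tissue, fewer cells of a type and less RNA per cell cannot be told apart. Scn4b, a beta subunit of sodium channels, was at 749.0, 841.3, 876.8, 895.6, 915.0, 1011, 1310 and 1324 CPM in the Q140 libraries and at 1764, 1825, 1888, 1909, 1943, 1951 and 2022 CPM in the wild type libraries. The highest Q140 value was below the lowest wild type value, and the level in Q140 was 0.52 of that in wild type (log2 fold change -0.94, SE 0.083, adjusted p = 1.87e-11).

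Adcy5, the adenylyl cyclase that makes most of the cyclic AMP of MSN, was at 1031 to 1504 CPM in Q140, median 1238, and 1780 to 2099 CPM in wild type, median 1888 (log2 fold change -0.64, SE 0.057, adjusted p = 1.87e-11). Pde10a, a phosphodiesterase that degrades cyclic nucleotides in MSN, was at 1224 to 2166 CPM in Q140, median 1575, and 2477 to 3021 CPM in wild type, median 2661 (log2 fold change -0.76, SE 0.076, adjusted p = 2.65e-10). Both were separated between the groups. Ppp1r1b encodes DARPP-32, a phosphatase inhibitor that combines dopamine and glutamate signals, and averaged 1445 ± 168 CPM in Q140 and 2090 ± 146 CPM in wild type (SD, n = 8 and 7). Rgs9, which shortens G protein signals, fell by 0.54 on the log2 scale, Arpp21, a cyclic AMP-regulated phosphoprotein, by 0.63 and Ppp1r16b, a phosphatase regulator, by 0.60, and all 4 were separated. Smaller falls with overlapping groups were seen in the transcription factors Foxp1 (0.24) and Bcl11b (0.23), which establish MSN in development.

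**Figure D2:**
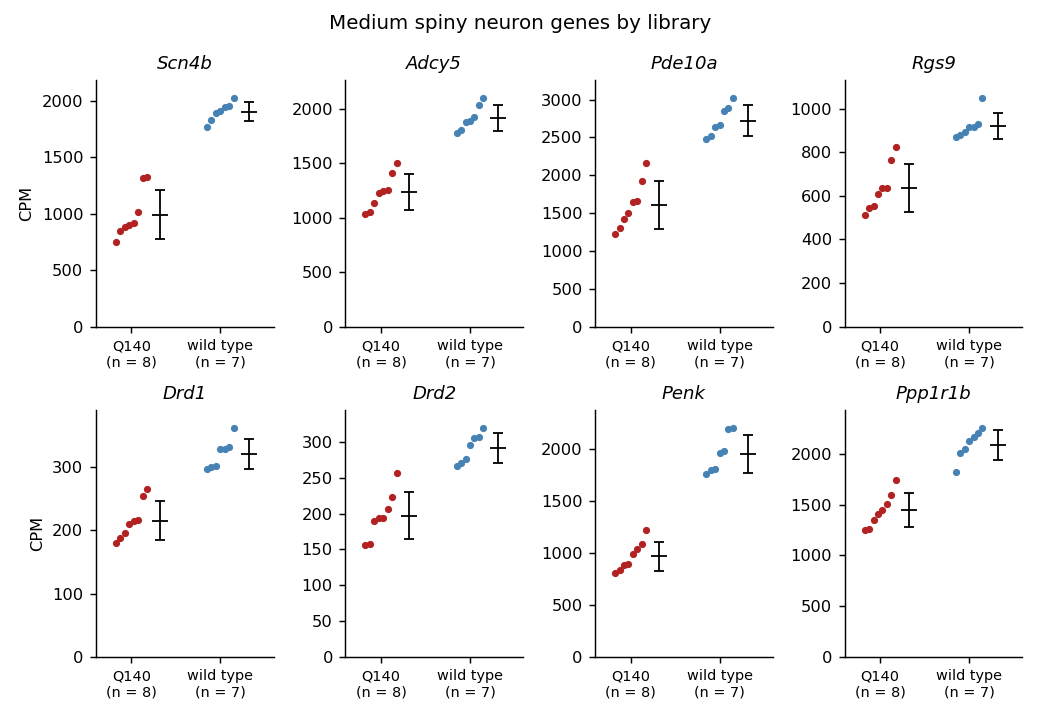
CPM (y axes) of 8 MSN genes in each library, with Q140 (red, n = 8) left of wild type (blue, n = 7). Points are sorted by value and the black bar gives the mean and SD; in all 8 panels every Q140 point lies below every wild type point.

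The level of MSN genes differed among Q140 libraries. The mean log2 CPM of the MSN identity list was 8.48 in Q140 M1, 8.52 in F1, 8.65 in F2, 8.69 in M2, 8.71 in M3, 8.79 in F4, 8.92 in F3 and 8.96 in M4, and between 9.05 and 9.24 in wild type. The groups did not overlap, and the Q140 libraries spanned a wider range than the wild type libraries. Oligodendrocyte markers were highest among Q140 libraries in F1 (mean log2 CPM 7.08) and M1 (6.93), the 2 with the lowest MSN level, against 6.52 to 7.06 in wild type. The wild type library at 7.06, M2, had an MSN level of 9.05, the lowest of its group. Q140 M4, with the highest MSN level among Q140 libraries, was the lowest of them in oligodendrocyte markers. Wild type M1, the lowest of its group in oligodendrocyte markers, had an MSN level of 9.18, inside the wild type range. The part of oligodendrocyte content in the MSN level was not tested. Among genes that rose, Sfmbt2 was lowest among Q140 libraries in M4 (4.04 CPM) and F3 (4.48 CPM), the libraries with the highest MSN level of the group.

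**Figure D3:**
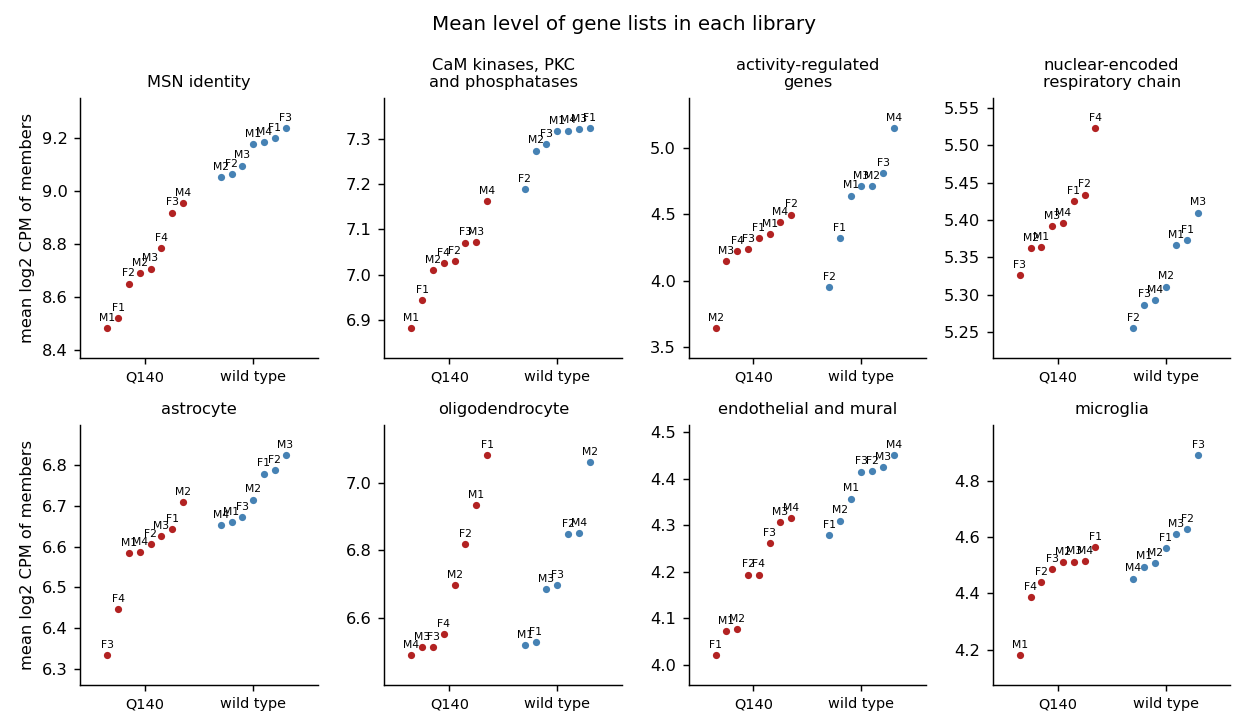
Mean log2 CPM over the members of 8 gene lists (y axes) in each library, with Q140 (red) left of wild type (blue), sorted by value and labelled by sex and replicate number. The MSN identity list and the list of CaM kinases, PKC and phosphatases do not overlap between the groups, whereas the other 6 lists do.

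Among 10 tested genes of indirect-pathway MSN 6 fell and Adk rose, with a median of -0.43, and 2 rose and 6 fell on library totals alone. Penk, the precursor of enkephalin, was at 800.4 to 1218 CPM in Q140, median 937, and 1756 to 2196 CPM in wild type, median 1954, so that Q140 had 0.493 of the wild type level (log2 fold change -1.02, SE 0.078, adjusted p = 3.34e-13). Drd2, the D2 receptor, averaged 197 ± 32.9 CPM in Q140 and 291 ± 20.6 CPM in wild type, and Adora2a, an adenosine receptor of indirect-pathway MSN, averaged 246 ± 46.0 CPM in Q140 and 386 ± 30.6 CPM in wild type. The call of Adk was lost without wild type F3 (adjusted p = 0.0907). The orphan receptor Gpr6 fell by 0.54 and Plxdc1 by 0.37. Penk, Drd2, Adora2a and Gpr6 were separated, and Plxdc1 and Adk overlapped.

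Among 11 genes of direct-pathway MSN 3 fell and 3 rose, and the median of -0.07 became 0.005 on library totals alone. Drd1, the D1 receptor, was at 180.4 to 266 CPM in Q140, median 212, and 297 to 362 CPM in wild type, median 328 (log2 fold change -0.57, SE 0.051, adjusted p = 1.87e-11). Chrm4, a muscarinic receptor that opposes D1 signals, fell by 0.55, also separated. Isl1, a transcription factor of direct-pathway MSN, went the other way, at 18.8 to 21.4 CPM in Q140 and 13.4 to 17.4 CPM in wild type (log2 fold change 0.34, SE 0.051, adjusted p = 1.43e-06). Tac1, the precursor of substance P, rose by 0.18 (adjusted p = 0.0149), a call lost without wild type F2 (adjusted p = 0.0522). Eya1 rose by 0.27, also lost without wild type M2 (adjusted p = 0.0518). Pdyn, the precursor of dynorphin, was at 91.0 to 108 CPM in Q140 and 89.2 to 128 CPM in wild type and was not called. The receptors of both pathways were thus lower in Q140, and of the 3 peptide precursors Penk was lower, Tac1 higher and Pdyn not called; whether they differ from each other was not tested.

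Among 23 neuropeptide precursors and granule proteins 2 rose and 4 fell (26.1% called, beside 19.9% of all genes tested). Their median of -0.03 became 0.06 on library totals alone, where 4 rose and 4 fell. The granule proteins Chgb and Vgf fell by 0.20 and 0.42, and Scg5, a chaperone of a peptide-processing enzyme, rose by 0.22. The call of Vgf was lost without any 1 of 4 libraries (adjusted p up to 0.0698). Crh, the precursor of corticotropin-releasing hormone, was at 0.172 to 0.448 CPM in Q140 and 0.456 to 2.98 CPM in wild type (log2 fold change -2.31, SE 0.40, adjusted p = 2.81e-05). In wild type its 3 females had 0.456 to 0.715 CPM and its 4 males 1.49 to 2.98 CPM, and the log2 fold change was -1.45 in females and -2.61 in males. That difference was not called.

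Of 49 receptors for neuromodulators 15 fell and 4 rose, with a median of -0.15, and 6 rose and 12 fell on library totals alone. Cnr1, the cannabinoid receptor of MSN terminals, averaged 259 ± 69.0 CPM in Q140 and 464 ± 63.7 CPM in wild type (log2 fold change -0.84, SE 0.13, adjusted p = 2.59e-06), with overlapping groups. The adrenergic receptor Adra2c fell by 0.43. The serotonin receptor Htr2c rose, at 87.8 to 113 CPM in Q140, median 97.7, and 49.6 to 80.0 CPM in wild type, median 64.2, separated between the groups (log2 fold change 0.64, SE 0.074, adjusted p = 1.54e-08). The neuropeptide Y receptors Npy1r and Npy5r rose by 0.41 and 0.23 and the nociceptin receptor Oprl1 by 0.24. The call of Npy5r was lost without any 1 of 7 libraries (adjusted p up to 0.108).

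Genes of cyclic AMP signalling and G proteins fell in 11 of 36 cases and rose in 4, with a median of -0.04 that became 0.04 on library totals alone, where 9 rose and 9 fell. Beside Adcy5, Arpp21 and Ppp1r1b, the phosphatase regulators Arpp19 and Ppp1r1a fell by 0.62 and 0.48. Gng3, a G protein gamma subunit, was at 88.5 to 109.6 CPM in Q140 and 67.5 to 84.5 CPM in wild type (log2 fold change 0.49, SE 0.062, adjusted p = 7.39e-08), and its relative Gng4 rose by 0.39. Prkar1b and Prkaca, subunits of protein kinase A, rose by 0.18 and 0.077, the call of Prkaca being lost without any 1 of 13 libraries (adjusted p up to 0.122).

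Of 18 phosphodiesterases 5 fell and none rose (27.8% called, beside 19.9% of all genes tested), while 3 rose and 3 fell on library totals alone. Besides Pde10a, Pde1b fell by 0.52, Pde7b by 0.39, Pde1c by 0.23 and Pde8b by 0.13; the calls of Pde1c and Pde8b were those lost on library totals, and that of Pde1c was also lost without any 1 of 7 libraries (adjusted p up to 0.0854). Of 18 Rgs proteins 10 fell and Rgs19 rose by 0.39, and 1 rose and 7 fell on library totals alone. Rgs14 was at 37.5 to 58.2 CPM in Q140, median 43.8, and 74.4 to 88.0 CPM in wild type, median 77.5 (log2 fold change -0.78, SE 0.078, adjusted p = 3.73e-10). Rgs4 averaged 445 ± 72.8 CPM in Q140 and 754 ± 62.6 CPM in wild type, and both were separated. Rgs7bp and Rgs10 fell by 0.46 and 0.29.

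The kinases and phosphatases listed here were lower in Q140 in most tested cases. Of 36 genes for CaM kinases, protein kinase C and phosphatases 22 fell and none rose, with a median of -0.27, and 19 fell and 2 rose on library totals alone. Prkcb, a protein kinase C activated by calcium, averaged 585 ± 98.5 CPM in Q140 and 923 ± 47.2 CPM in wild type. Camk2b, a subunit of the kinase that acts in synaptic strengthening, was at 1217 to 1553 CPM in Q140, median 1391, and 1583 to 1794 CPM in wild type, median 1707. Ppp3ca, the catalytic subunit of calcineurin, fell by 0.42. The tyrosine phosphatase Ptpn7 was at 2.68 to 7.93 CPM in Q140 and 9.80 to 12.7 CPM in wild type (log2 fold change -1.09, SE 0.14, adjusted p = 6.96e-08).

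Of 32 genes for calcium stores, pumps and buffers 17 fell and none rose, with a median of -0.17, and 2 rose and 12 fell on library totals alone. Itpr1 and Ryr1 encode channels that release calcium from the endoplasmic reticulum. Itpr1 averaged 1154 ± 243 CPM in Q140 and 1816 ± 109 CPM in wild type, and Ryr1 averaged 81.7 ± 30.5 CPM in Q140 and 172 ± 24.6 CPM in wild type. Atp2b1, a pump that exports calcium, fell by 0.56, the calcium sensor Hpca by 0.42 and the inositol trisphosphate kinase Itpka by 0.46. Of 22 genes named as voltage-gated calcium channels or their auxiliary subunits 9 fell and Cacng7 rose by 0.20, and 5 rose and 8 fell on library totals alone. Cacna2d3, Cacng4, Cacnb1 and Cacnb3, named as auxiliary subunits, fell by 0.37, 0.38, 0.33 and 0.33, and Cacna1e, the pore of R-type channels, by 0.34.

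Ras and Rap regulators fell in 15 of 36 cases, and Rnd1 rose by 0.32, a call lost without wild type F3 or wild type M4 (adjusted p up to 0.0757), and 2 rose and 10 fell on library totals alone. The GTPases Hras and Rasd2 (Rhes, enriched in striatum) fell by 0.41 and 0.41. Rasgrp2, an exchange factor for Rap, fell by 0.38 and Rin1, a Ras effector, by 0.32. Rasl10a was at 2.699 to 4.90 CPM in Q140 and 6.57 to 8.94 CPM in wild type (log2 fold change -0.97, SE 0.11, adjusted p = 3.76e-09), with separated groups.

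Of 40 postsynaptic scaffold genes 21 fell and 4 rose, with a median of -0.13, and 7 rose and 15 fell on library totals alone. Homer1, which ties metabotropic glutamate receptors to calcium stores, was at 101 to 211 CPM in Q140, median 149, and 213 to 286 CPM in wild type, median 244 (log2 fold change -0.79, SE 0.11, adjusted p = 5.14e-07). Shank3 fell by 0.50, its partner Dlgap3 by 0.45, and the spine phosphatase scaffolds Ppp1r9b and Ppp1r9a by 0.40 and 0.34. Cnih3, an auxiliary protein of AMPA receptors, was higher at 10.9 to 13.3 CPM in Q140 and 6.03 to 10.2 CPM in wild type. Of 51 presynaptic genes 12 fell and 4 rose, and their median of -0.03 became 0.05 on library totals alone, where 13 rose and 8 fell. The presynaptic list averaged 7.24 log2 CPM in Q140 and the postsynaptic list 7.445. The list of cyclic AMP and G proteins averaged 7.04, that of CaM kinases, protein kinase C and phosphatases 7.025, and that of calcium stores 6.915. In the quintile of genes with the most reads 1057 of 3995 fell and 336 rose. The vesicle calcium sensor Syt2 fell by 0.51, Cplx2 by 0.26 and Rims3 by 0.26, and Unc13b, a vesicle priming factor, rose by 0.32.

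Of 54 potassium channel genes 20 fell and none rose, and 5 rose and 13 fell on library totals alone. Kcnh4 was at 44.9 to 68.4 CPM in Q140, median 47.0, and 77.1 to 99.3 CPM in wild type, median 80.3 (log2 fold change -0.66, SE 0.082, adjusted p = 6.34e-08). Kcnab1 fell by 0.46 and Kcnh3 by 0.42. Of 16 sodium and HCN channel genes 6 fell and 3 rose, and 3 rose and 3 fell on library totals alone. Scn9a, a sodium channel best known from sensory neurons, rose at 16.7 to 33.1 CPM in Q140, median 22.9, and 10.6 to 15.97 CPM in wild type, median 13.8 (log2 fold change 0.80, SE 0.12, adjusted p = 5.19e-06). Hcn3 and Scn3b rose by 0.34 and 0.18, while Fgf14, a channel partner, and the beta subunit Scn2b fell by 0.24 and 0.17.

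Of 25 glutamate receptor genes 11 fell and none rose, and 2 rose and 9 fell on library totals alone. The metabotropic receptor Grm5 was at 361 to 479.7 CPM in Q140, median 419, and 521 to 634 CPM in wild type, median 545 (log2 fold change -0.41, SE 0.053, adjusted p = 8.11e-08). Its relative Grm4 fell by 0.36, the kainate receptor Grik2 by 0.44 and the delta receptor Grid1 by 0.19. GABA and glycine receptor genes fell in 4 of 18 cases and Glra2 rose by 0.35 (27.8% called, beside 19.9% of all genes tested). Their median of -0.03 became 0.05 on library totals alone, where 4 rose and 2 fell. Gabrd fell by 0.43, Gabra4 by 0.23, Gabrb1 by 0.20 and Gabbr1 by 0.11, the last a call lost without Q140 F1 or Q140 M1 (adjusted p up to 0.0581).

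Activity-regulated genes, which neuronal firing induces within minutes to hours, fell in 12 of 33 cases and rose in none, with a median of -0.32. The libraries of each group differed widely. Egr2 was at 2.22, 5.33, 8.41, 8.66, 9.74, 10.1, 11.2 and 12.6 CPM in Q140 and at 7.99, 11.3, 23.2, 28.2, 28.9, 37.0 and 54.6 CPM in wild type (log2 fold change -1.59, SE 0.39, adjusted p = 0.00259). The 2 low wild type values were those of females F2 and F1. Egr3 averaged 87.9 ± 17.9 CPM in Q140 and 136 ± 19.97 CPM in wild type, Ier5 fell by 0.43 and Inhba, a subunit of activin, by 0.55. Fos, Arc and Bdnf were not called: Fos was at 2.696 to 41.0 CPM in Q140 and 6.32 to 26.2 CPM in wild type, Arc at 42.8 to 187 CPM in Q140 and 84.9 to 356 CPM in wild type and Bdnf at 0.174 to 0.56 CPM in Q140 and 0.189 to 0.935 CPM in wild type. The mean log2 CPM of the list was lowest in Q140 M2 (3.64) and in wild type F2 (3.95) and highest in wild type M4 (5.16). Its median log2 fold change was -0.09 in females and -0.55 in males, a difference of lists that was not tested. Of 25 members with a promoter window 4 held a CRE (16%, beside 3.09% of all windows), namely Arl4d, Btg2, Dusp1 and Pcsk1, and none of these was called. An E box was found in 6 of the 25 (24%) and a TATA box in 5 (20%).

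Of 23 clock genes 8 fell and none rose, and 2 rose and 5 fell on library totals alone. Npas2, which can stand in for Clock, fell by 0.46, the output factors Dbp and Hlf by 0.33 and 0.25, and the repressors Bhlhe40 and Per1 by 0.41 and 0.48. Per1 is also on the activity list. The log2 fold change of Bhlhe40 was -0.12 in females and -0.59 in males, and that of Per1 -0.21 and -0.70. Npas2 went the other way, with -0.64 in females and -0.32 in males. None of these sex differences was called.

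Growth factors, neurotrophins and their receptors fell in 12 of 39 cases and Egf rose by 0.32, and 3 rose and 6 fell on library totals alone. Ntrk3, the receptor for neurotrophin 3, was at 220.4 to 280.0 CPM in Q140, median 257, and 302 to 339.9 CPM in wild type, median 330.2 (log2 fold change -0.36, SE 0.05, adjusted p = 3.12e-07). Ntrk2, the BDNF receptor, was at 477 to 686 CPM in Q140 and 568 to 692 CPM in wild type and was not called (adjusted p = 0.137). Sort1, a sorting receptor for BDNF, fell by 0.26, Hbegf by 0.55, Igfbp6 by 0.49 and Nrg1 by 0.23. Axon guidance genes rose in 10 and fell in 8 of 65 cases (27.7% called, beside 19.9% of all genes tested). Their median of -0.02 became 0.06 on library totals alone, where 14 rose and 5 fell. The plexin Plxna3 and the semaphorins Sema6c and Sema4g rose by 0.42, 0.35 and 0.27. Sema7a fell by 0.47, Plxnd1 by 0.28, the semaphorin receptor Nrp1 by 0.33 and the netrin receptor Dcc by 0.29.

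In the Wnt pathway 8 of 51 genes fell and Dvl3 rose by 0.13 (17.6% called, beside 19.9% of all genes tested). The median was -0.08, and 6 rose and 7 fell on library totals alone. The transcription factor Tcf7 was at 9.65 to 16.9 CPM in Q140 and 18.5 to 22.4 CPM in wild type (log2 fold change -0.68, SE 0.081, adjusted p = 2.03e-08). At low levels, the ligands Wnt8b and Wnt4 fell by 1.69 and 1.05 and the inhibitor Dkk2 by 1.22; Wnt8b was at 0.444 to 1.34 CPM in Q140 and 1.69 to 5.13 CPM in wild type. The call of Dvl3 was lost without Q140 M3 or wild type M4 (adjusted p up to 0.067). The coreceptor Lrp6 fell by 0.22. In the retinoic acid pathway 7 of 19 genes fell, and 3 rose and 5 fell on library totals alone. Rbp4, a carrier of retinol, fell by 0.66, the receptors Rarb, Rxra and Rxrg by 0.27, 0.18 and 0.36, and Aldh1a1, which makes retinoic acid, by 0.40. Nr2f1, a nuclear receptor, rose by 0.33, a call lost without Q140 M1 or wild type F3 (adjusted p up to 0.0647). The call of Rxrg was lost without wild type F3 (adjusted p = 0.0577).

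Of 36 striatal transcription factors 5 rose and 8 fell, and 12 rose and 7 fell on library totals alone. Foxp4, a relative of Foxp1, was at 34.9 to 40.0 CPM in Q140 and 28.2 to 32.1 CPM in wild type, separated (log2 fold change 0.36, SE 0.05, adjusted p = 3.21e-07). Bcl11a, a relative of Bcl11b, was at 84.2 to 97.1 CPM in Q140 and 75.1 to 85.5 CPM in wild type, with a slight overlap (log2 fold change 0.23, SE 0.033, adjusted p = 6.56e-07). In both families 1 member thus rose while another fell. The developmental factors Six3 and Dlx5 rose by 0.22 and 0.19, and Meis2, Myt1l and Klf16 fell by 0.24, 0.29 and 0.30.

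Polycomb group proteins keep developmental genes silent. Of 42 such genes 8 rose and 5 fell (31% called, beside 19.9% of all genes tested), and 20 rose and none fell on library totals alone. Sfmbt2 was at 4.04, 4.48, 7.14, 8.20, 8.29, 8.72, 10.2 and 11.2 CPM in Q140 and at 2.63, 2.83, 3.07, 3.16, 3.32, 3.67 and 3.90 CPM in wild type, and the groups did not overlap (log2 fold change 1.27, SE 0.15, adjusted p = 1.23e-08). Cbx8, a chromobox subunit of Polycomb repressive complex 1, rose by 0.69, Pcgf2 by 0.30 and the ubiquitin ligase Rnf2 by 0.15. Bap1, which removes the mark set by that complex, fell by 0.12 and Rbbp7 by 0.12, both calls lost on library totals alone.

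Of 151 developmental homeobox, Pax and T-box factors and their like only 44 had enough reads to be tested, and 3 rose and 1 fell, with a median of -0.01 that became 0.07 on library totals alone. Wt1 was at 0, 0.448, 0.621, 0.739, 1.01, 1.63, 2.11 and 2.14 CPM in Q140 and at 0 to 0.167 CPM in wild type, so all Q140 libraries but M4 lay above every wild type library (log2 fold change 3.59, SE 0.51, adjusted p = 8.46e-07). Hoxa7 was at 0.22 to 0.472 CPM in Q140 and 0.0207 to 0.211 CPM in wild type. DESeq2 gave neither gene an adjusted p, with log2 fold changes of 3.65 for Wt1 and 1.5 for Hoxa7. The transcription factor Mafa fell, at 0.292 to 0.793 CPM in Q140 and 1.53 to 2.20 CPM in wild type (log2 fold change -2.00, SE 0.20, adjusted p = 2.07e-10).

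Clustered protocadherins give neurons distinct surface identities and lie in an alpha, a beta and a gamma cluster. Of 22 beta genes 12 rose and Pcdhb8 fell by 0.38, with a median of 0.30 and 6 separated, and 14 rose and none fell on library totals alone. Pcdhb3 was at 6.16 to 7.67 CPM in Q140 and 3.52 to 5.09 CPM in wild type (log2 fold change 0.67, SE 0.082, adjusted p = 3.2e-08), Pcdhb9 averaged 19.6 ± 1.56 CPM in Q140 and 13.7 ± 0.449 CPM in wild type, and Pcdhb12 and Pcdhb22 rose by 0.56 and 0.43. Of 13 alpha genes 2 rose, Pcdha9 by 0.49 and Pcdha5 by 0.42, and 6 rose and none fell on library totals alone. The call of Pcdha5 was lost without any 1 of 5 libraries (adjusted p up to 0.0941) and that of Pcdhb8 without any 1 of 6 libraries (adjusted p up to 0.0983). Of 20 gamma genes 3 rose and 7 fell, and 5 rose and 3 fell on library totals alone. Pcdhga2 rose by 0.54, and Pcdhgc3 and Pcdhgb4 fell by 0.18 and 0.33. Members of these clusters are alike in sequence, and alpha and gamma transcripts share their last exons, so single values depend on how shared reads were counted.

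Of 36 histone deacetylase, methylation and TET genes 9 rose and 7 fell, and 14 rose and 4 fell on library totals alone. The deacetylases Hdac3, Hdac10 and Hdac1 rose by 0.16, 0.34 and 0.39, and Hdac11 fell by 0.20, as did Mbd2, which reads DNA methylation, by 0.23 and the corepressor Sin3a by 0.17. Genes named Zfp, zinc finger proteins, rose in 57 and fell in 23 of 366 cases (21.9% called, beside 19.9% of all genes tested). On library totals alone 140 rose and 10 fell. Zfp7 and Zfp711 rose by 0.56 and 0.39. Zfp180 was at 63.6 to 85.6 CPM in Q140, median 72.3, and 92.4 to 109.6 CPM in wild type, median 104 (log2 fold change -0.51, SE 0.05, adjusted p = 1.65e-10), and Zfp706 fell by 0.29.

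Of 33 mismatch and base excision repair genes 8 rose and none fell (24.2% called, beside 19.9% of all genes tested). The median was 0.11, and 17 rose and none fell on library totals alone. Rrm2b, a subunit of ribonucleotide reductase, was at 44.7 to 54.4 CPM in Q140 and 42.2 to 48.5 CPM in wild type (log2 fold change 0.19, SE 0.038, adjusted p = 0.000254), and Xrcc1, a scaffold of base excision repair, at 28.1 to 31.98 CPM in Q140 and 25.7 to 28.2 CPM in wild type. The nucleases Apex1 and Fen1 rose by 0.16 and 0.20 and Rpa2, which binds single-stranded DNA, by 0.19. The mismatch repair genes Msh3, Msh6, Mlh3, Pms1 and Pms2 were not called with TMM.

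The list of p53 targets and DNA damage genes held 28 tested members, 3 higher and 5 lower in Q140, beside 9.64% higher and 10.2% lower of all genes tested. Its median of -0.004 became 0.08 on library totals alone. There 8 members rose and 3 fell, beside 5076 and 1104 of all 19975 genes. Trp53 itself was at 22.4 to 27.7 CPM in Q140 and 18.9 to 22.7 CPM in wild type (log2 fold change 0.20, SE 0.049, adjusted p = 0.00222), and its target Bax rose by 0.13. Rprm, which arrests the cell cycle and is among its targets, was at 10.1 to 12.8 CPM in Q140, median 11.6, and 3.76 to 6.52 CPM in wild type, median 5.64 (log2 fold change 1.13, SE 0.15, adjusted p = 3.23e-07). Cdkn1a, the p21 gene and a classical target, fell to 9.02 to 14.5 CPM in Q140, against 12.2 to 17.1 CPM in wild type (adjusted p = 0.0364), and Gadd45a and Plk2 fell by 0.44 and 0.23. Ddit4l, a relative of an mTOR inhibitor, averaged 11.3 ± 3.93 CPM in Q140 and 35.0 ± 3.83 CPM in wild type (log2 fold change -1.64, SE 0.14, adjusted p = 1.87e-11). The call of Cdkn1a was lost without any 1 of 9 libraries (adjusted p up to 0.0758).

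**Figure D4:**
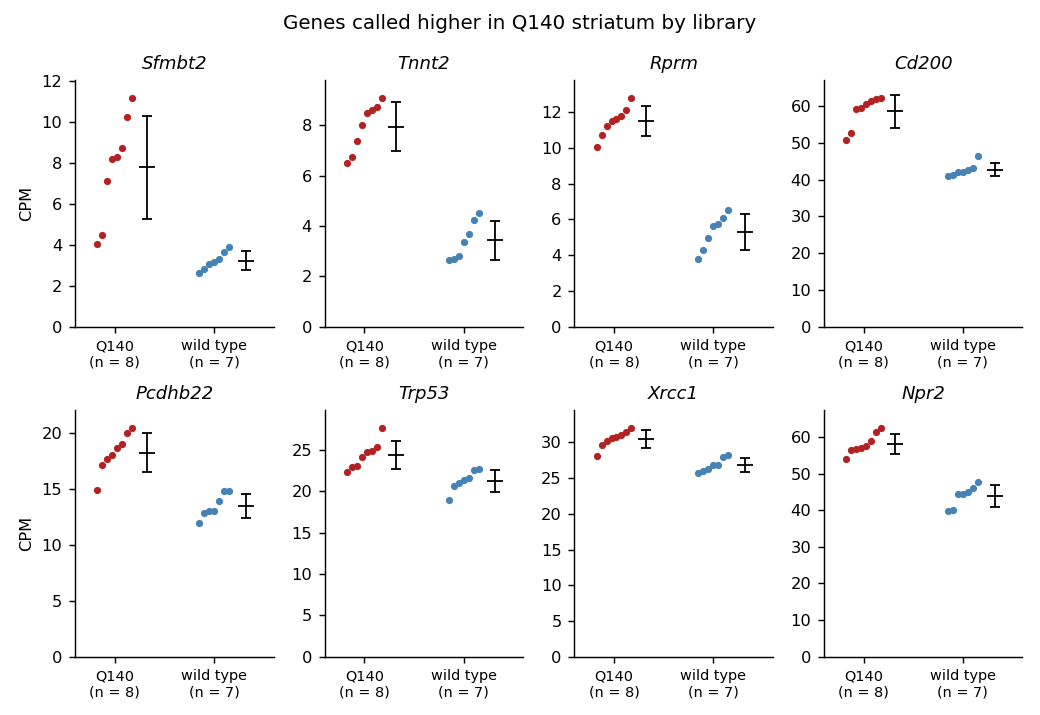
CPM (y axes) of 8 genes called higher in Q140 in each library, with Q140 (red, n = 8) left of wild type (blue, n = 7). Points are sorted by value and the black bar gives the mean and SD; Sfmbt2, Tnnt2, Rprm, Cd200, Pcdhb22 and Npr2 are separated between the groups, and Trp53 and Xrcc1 overlap.

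Housekeeping lists had small median changes, with counts that depend on the scaling. Of nuclear-encoded respiratory chain genes 24.4% were called, beside 19.9% of all genes tested. The shares were 15.4% of mitochondrially encoded, 15.8% of proteasome and 3.53% of ribosomal protein genes. Of 82 nuclear-encoded respiratory chain genes 19 rose and Ndufs3 fell by 0.15, with a median of 0.08, and 61 rose and none fell on library totals alone. Cyc1, a subunit of complex III, was at 74.0 to 81.9 CPM in Q140 and 62.3 to 74.4 CPM in wild type (log2 fold change 0.20, SE 0.039, adjusted p = 0.000229), and Ndufv3 and Cox7c rose by 0.19 and 0.26. The mitochondrial genome contributed 13 tested genes, of which mt-Nd6 and mt-Nd2 fell by 0.26 and 0.20, calls lost on library totals alone. Proteasome genes rose in 6 of 38 cases, led by Psmb10 (0.29) and Psmb5 (0.16), and 26 rose and none fell on library totals alone. Of 85 ribosomal protein genes Rpl18 and Rpl3 rose by 0.16 and 0.17 and Rpl31 fell by 0.24, and 37 rose and 1 fell on library totals alone; these genes share reads with many pseudogenes. The call of mt-Nd6 was lost without wild type M3 (adjusted p = 0.0611), that of mt-Nd2 without any 1 of 4 libraries (adjusted p up to 0.069), that of Rpl18 without wild type M4 (adjusted p = 0.0575) and that of Rpl3 without any 1 of 11 libraries (adjusted p up to 0.114).

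With TMM 8.57% of heat shock genes and cochaperones and 6.67% of unfolded protein response genes were called, beside 19.9% of all genes tested. Heat shock genes and cochaperones rose in 2 and fell in 1 of 35 cases, with a median of -0.01 that became 0.07 on library totals alone. There 8 members rose and 1 fell, beside 5076 and 1104 of all 19975 genes. In the unfolded protein response 2 of 30 genes fell and none rose, with a median of -0.04 that became 0.04 on library totals alone, where 3 rose and 2 fell. Atf6, a sensor of unfolded proteins, was at 80.9 to 109 CPM in Q140, median 99.1, and 118 to 161 CPM in wild type, median 139 (log2 fold change -0.52, SE 0.068, adjusted p = 1.5e-07), and the chaperone Hsp90b1 fell by 0.25. Both were separated. Autophagy and lysosome genes rose in 5 and fell in 3 of 40 cases (20% called, beside 19.9% of all genes tested). On library totals alone 19 rose and 1 fell. Rragd, a GTPase that signals amino acids to mTOR, fell by 0.37.

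Cholesterol synthesis genes rose in 4 and fell in 5 of 27 cases, with a median of -0.03 that became 0.05 on library totals alone, where 6 rose and 3 fell. The regulator Srebf2 fell by 0.24 and the enzyme Msmo1 by 0.26, and the enzyme Tm7sf2 rose by 0.30. Glycolysis genes rose in 7 and fell in 6 of 30 cases, and 16 rose and 1 fell on library totals alone. Slc2a3, the neuronal glucose transporter, rose by 0.13 and Pfkfb3 fell by 0.35. None of 28 interferon response genes was called, and 2 rose and none fell on library totals alone. The member with the smallest p, Irf3, had a log2 fold change of 0.16 (adjusted p = 0.071) and was called higher on library totals alone (adjusted p = 0.00554).

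Among 29 neuronal long noncoding and imprinted genes 5 rose and 3 fell (27.6% called, beside 19.9% of all genes tested). On library totals alone 10 rose and 2 fell. Meg3, an imprinted long noncoding RNA, was at 6044 to 7234 CPM in Q140 and 4719 to 5852 CPM in wild type (log2 fold change 0.25, SE 0.055, adjusted p = 0.000688), and Rian, from the same imprinted locus, rose by 0.17. Miat rose by 0.42 and the nuclear RNA Malat1 fell by 0.45. Peg10, a gene derived from a retrotransposon, averaged 31.0 ± 5.49 CPM in Q140 and 60.1 ± 18.6 CPM in wild type (log2 fold change -0.93, SE 0.14, adjusted p = 5.12e-06). Its wild type females were at 39.2 to 47.4 CPM and its wild type males at 61.5 to 86.3 CPM.

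**Figure D5:**
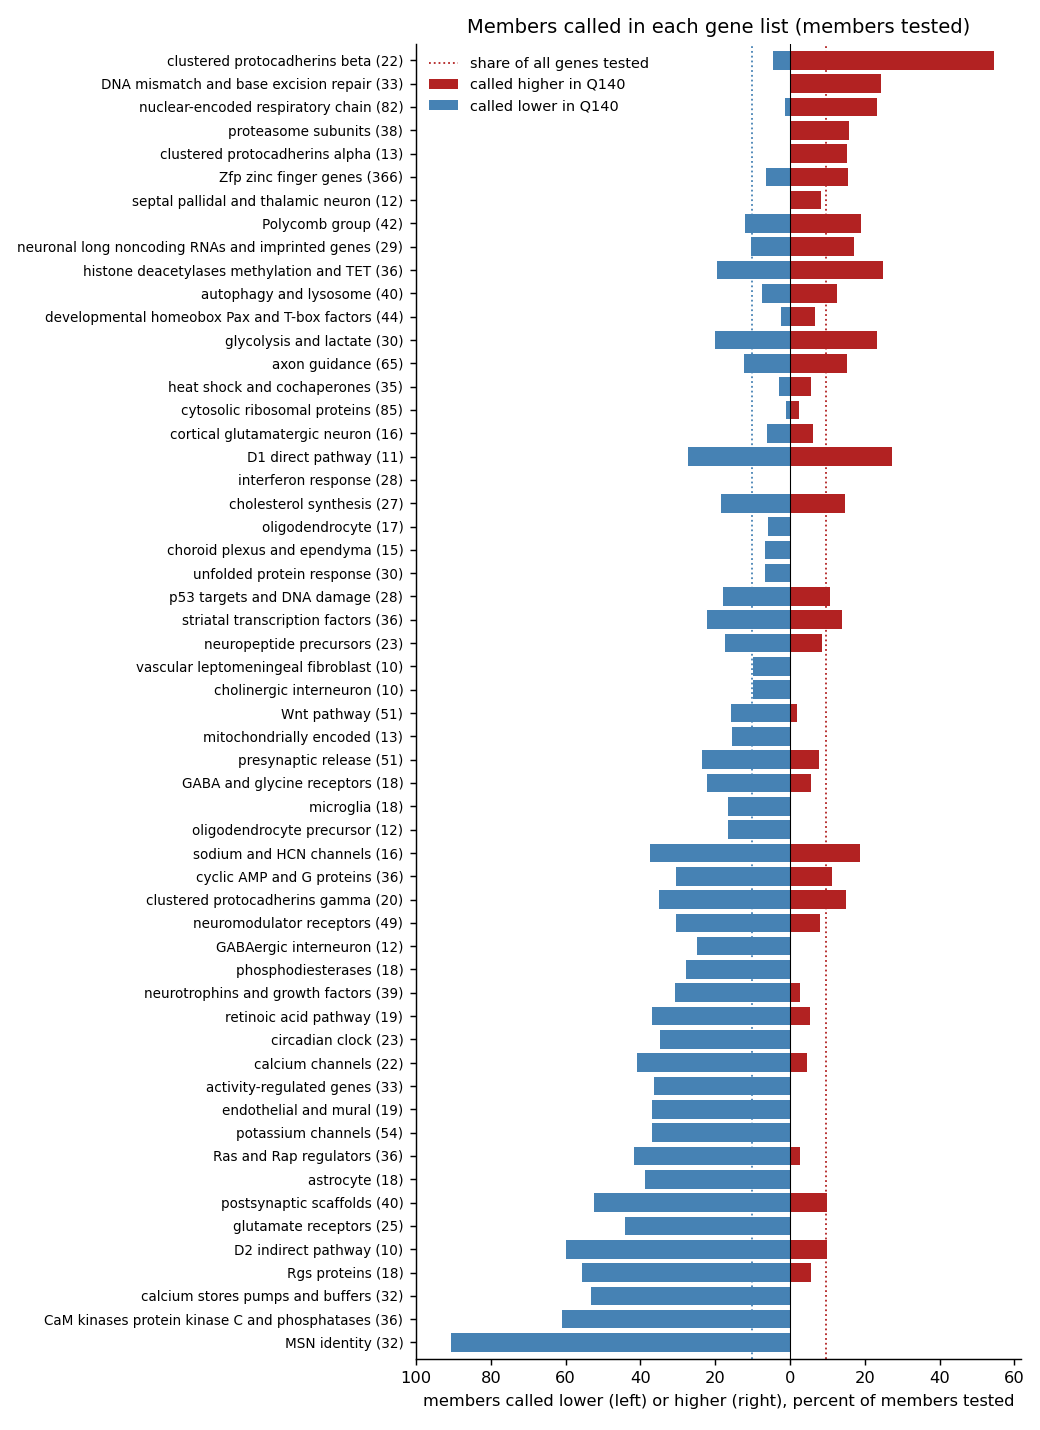
Share of members called higher (red, right) and lower (blue, left) in Q140 for each list with at least 10 members tested, in percent of members tested (number in parentheses); dotted lines mark the shares among all genes tested, 9.64% higher and 10.2% lower. Beta protocadherins stand at the top with 12 of 22 higher and MSN identity at the bottom with 29 of 32 lower; calls use TMM scaling, and on library totals alone many lists between these ends shift towards higher.

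Markers of other cell types were counted in the same way, beside 9.64% higher and 10.2% lower of all genes tested. Of 18 astrocyte markers 7 fell and none rose, with a median of -0.14, and none rose and 4 fell on library totals alone. The glutamate transporter Slc1a2 was at 2510 to 3341 CPM in Q140, median 3005, and 3512 to 3814 CPM in wild type, median 3666 (log2 fold change -0.31, SE 0.057, adjusted p = 5.16e-05), and Slc4a4 and Ppp1r3c fell by 0.35 and 0.39. The summed level of the list, much of it from Slc1a2, was 5286 to 6380 CPM in Q140 and 6753 to 7289 CPM in wild type. The mean log2 CPM of the list overlapped between the groups. Endothelial and mural markers fell in 7 of 19 cases, with sums of 428 to 513 CPM in Q140 and 511 to 569 CPM in wild type, and none rose and 3 fell on library totals alone. Tek, an endothelial receptor, fell by 0.33 and Abcc9, a channel subunit of pericytes, by 0.32.

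Microglial markers fell in 3 of 18 cases, and all 18 fold changes were below 0, and none rose and 1 fell on library totals alone. The growth factor receptor Csf1r fell by 0.21 and the complement gene C1qa by 0.23, the call of C1qa being lost without any 1 of 5 libraries (adjusted p up to 0.18). The sums were 463 to 593 CPM in Q140 and 562 to 756 CPM in wild type. The highest sum belonged to wild type F3, which also had the highest mean level of interferon response genes. Of 17 oligodendrocyte markers Ugt8a fell by 0.27, with a median of -0.04 that became 0.05 on library totals alone and sums of 5563 to 8118 CPM in Q140 and 5753 to 8469 CPM in wild type, and 1 rose and none fell on library totals alone. The call of Ugt8a was lost without any 1 of 10 libraries (adjusted p up to 0.152). Oligodendrocyte precursor markers fell in 2 of 12 cases, among them Ptprz1 (-0.18), and their median of -0.07 became 0.008 on library totals alone, where 2 rose and none fell. Of 10 markers of leptomeningeal fibroblasts Dcn fell by 0.41.

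Of 10 markers of cholinergic interneurons Tacr1 fell by 0.18, a call lost without Q140 F1, Q140 M1 or wild type F3 (adjusted p up to 0.0724), and 1 rose and none fell on library totals alone. GABAergic interneuron markers fell in 3 of 12 cases, with a median of -0.09, and none rose and 2 fell on library totals alone. Nos1 fell by 0.25 and Reln by 0.37. Of 16 cortical markers Cux2 rose by 0.37 and 1 fell, with a median of -0.21 and sums of 327 to 378 CPM in Q140 and 294 to 414 CPM in wild type, and 3 rose and none fell on library totals alone. Of 12 septal, pallidal and thalamic markers 1 rose, Six3. Blood markers summed to 0.151 to 11.2 CPM in Q140 and 0.317 to 29.8 CPM in wild type, and none of 5 was called.

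Choroid plexus and ependymal markers summed to 40.5 to 85.9 CPM in Q140. In wild type they were at 674.0 CPM in M2, 280.3 CPM in M1 and 31.8 to 81.4 CPM in the other 5 libraries. The median log2 fold change was -0.78, and none rose and 2 fell on library totals alone. Kcnj13, the only one of 15 called, was at 0 to 0.278 CPM in Q140 and 0 to 4.64 CPM in wild type, and its call was lost without any 1 of 9 libraries (adjusted p up to 0.27), wild type M2 among them. The part of these cell types in the results on other lists was not tested. Without wild type F3, wild type M2 and Q140 M2, the libraries with the highest microglial sum, the highest choroid sum and the lowest activity-regulated level, 3152 genes were called, 1462 higher and 1690 lower.

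Some of the strongest changes lie outside the lists. Ankrd35, an ankyrin repeat gene, had the smallest p of all, at 7.07 to 9.61 CPM in Q140, median 7.76, and 15.2 to 18.2 CPM in wild type, median 16.4 (log2 fold change -1.05, SE 0.073, adjusted p = 8.14e-15). Gpd1, a glycerol phosphate dehydrogenase, fell by 0.56 and Ppp4r4, a phosphatase regulator, by 0.62. At lower levels, the glutathione peroxidase Gpx6 was at 1.39 to 3.53 CPM in Q140 and 5.37 to 10.3 CPM in wild type. Sec14l3, Cpne9 and the growth factor Fgf3 fell by 1.58, 1.49 and 1.44. Aoah, which inactivates lipopolysaccharide, was at 0.129 to 0.722 CPM in Q140 and 0.919 to 2.12 CPM in wild type, and Tmem114 at 0.0642 to 0.315 CPM in Q140 and 0.595 to 1.18 CPM in wild type. All of these were separated between the groups.

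Among genes that rose, Cd200, a neuronal surface protein that restrains microglia, had the smallest p, at 50.7 to 62.2 CPM in Q140, median 60.1, and 41.0 to 46.4 CPM in wild type, median 42.0 (log2 fold change 0.46, SE 0.043, adjusted p = 6.54e-11). Npr2, the receptor for C-type natriuretic peptide, was at 54.1 to 62.4 CPM in Q140 and 39.7 to 47.8 CPM in wild type. Olfm3, an olfactomedin, rose by 0.65, Stmn2, a microtubule regulator of growing axons, by 0.58 and Lrrn3, a leucine-rich repeat protein of neurons, by 0.53. Nagk, Ildr2 and the endothelin-converting enzyme Ece2 rose by 0.56, 0.49 and 0.47. Tnnt2, cardiac troponin T, was at 6.50 to 9.09 CPM in Q140, median 8.24, and 2.65 to 4.51 CPM in wild type, median 3.36 (log2 fold change 1.23, SE 0.14, adjusted p = 5.64e-09), and Ttn, titin, at 1.91 to 3.34 CPM in Q140 and 0.571 to 1.63 CPM in wild type. Vill and Fam196b rose by 0.93 and 0.88. The chemokine gene Ccl28 rose by 1.27 with an SE of 0.36, and its groups overlapped at 1.78 to 4.76 CPM in Q140 and 0.381 to 2.24 CPM in wild type.

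The spread within each group was described for called genes. Among genes that averaged 4 or more on the log2 CPM scale, the SD of log2 CPM was larger in Q140 for 1145 of 1526 genes that fell (75%), with a median SD of 0.122 in Q140 and 0.088 in wild type. It was larger in Q140 for 490 of 1008 genes that rose (48.6%), with medians of 0.0781 in Q140 and 0.0808 in wild type, and for 3250 of 5985 genes not called (54.3%), with medians of 0.0877 and 0.0821. All these genes come from the same 15 libraries, so the shares are a description.

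No gene passed the test of a difference in the Q140 effect between females and males with edgeR (0%), while 1478 had an unadjusted p below 0.05, and the smallest adjusted p was 0.585. In contrasts for each sex from 1 joint fit of all 48 libraries, 1955 genes were called in females (9.79%) and 1834 in males (9.18%). Both contrasts share 1 estimate of the spread. Of those called in females 95.3% had the same sign in males and 43.3% were also called there. Of those called in males 93.7% had the same sign in females and 46.1% were also called. Scn4b fell by 0.93 in females and 0.95 in males, and Drd1 by 0.56 and 0.58. Sfmbt2 rose by 1.37 in females and 1.20 in males. Other named genes were less alike. The log2 fold change was -0.37 in females and 0.03 in males for Ntrk2, -0.12 and -0.59 for Bhlhe40, and 0.64 and -1.04 for Bdnf. In edgeR's test of the difference their adjusted p were 0.597, 0.603 and 0.639. A p that misses the threshold does not show that the sexes responded alike.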

How the data were processed

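RNA of dissected striatum was sequenced from Illumina TruSeq stranded libraries, per the labels' protocols. The authors deposited raw read counts per gene and FPKM values, which are scaled to gene length and library total, per the file headers. STAR 2.7.5c, SAMtools 1.10 and HTSeq 0.12.3 and the builds GRCm38 and mm10 are named in the submitters' processing notes; the strand setting and the annotation release are not given in the sources used here, so overlapping and antisense genes cannot be told apart with certainty. Coordinates are on GRCm38.

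Counts of all 48 libraries were fitted together with edgeR 4.0.16 (filterByExpr on group, TMM, group means plus sex, robust quasi-likelihood), so that the 6 groups share 1 estimate of the spread, and Q140 minus wild type was tested two-sided with Benjamini-Hochberg adjustment at 0.05 over 19975 genes. The 28820 genes left out hold 0.0383% of the counts. The SE of a log2 fold change is its size divided by the square root of F. The libraries compared held 39.5 to 50.9 M counts, and the biological coefficient of variation was 10.3%. Results on library totals alone come from the same edgeR fit without TMM, added after seeing the data. Deposited FPKM were tested with limma 3.58.1 on log2(FPKM + 0.1), which understates changes of low genes. DESeq2 1.42.0, other filters, covariates and left-out libraries were tried as alternatives. The scripts were tested on simulated data. R was 4.3.3.

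Named genes are Msh3, Htt, 21 textbook striatal genes, the 12 largest rises and falls whose average log2 CPM was 0 or more, the 12 of smallest p each way, and up to 5 called members each way per list, or 2 by smallest p where none was called, of which the text gives a part. Strip2, Tmem158, Cpne5, Arl4d, Btg2, Dusp1, Pcsk1, Msh6, Mlh3, Pms1 and Pms2 lie outside this rule and were chosen after their values were seen. The comparison, the 57 gene lists and this rule were chosen with earlier results of these data known, so no count over a list is independent support. Promoter windows come from RefSeq, 1 per gene (the most upstream), for 12377 of 19975 genes. A few withheld genes are not reported here.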

Additional observations from a re-analysis of the deposited data

Results flagged for a closer look

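Within the 8 Q140 or 7 wild type libraries, 24 of 488 sets of gene values and 8 of 114 sets of list means held a library whose gap to the nearest other, over the whole range, passed Dixon's critical value. Chance flags about 5% of such sets.

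Q140 M4 stood apart in 5 genes. It was highest in Ankrd35 (9.61 CPM), Homer1 (211.1 CPM) and Egr3 (127.5 CPM), each in the direction of wild type, and lowest in Rrm2b (44.7 CPM) and Nagk (25.4 CPM), also in the direction of wild type. The same library had the highest mean of the MSN identity list in its group.

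Wild type F3 stood apart in 7 sets. It was highest in C1qa (69.1 CPM), Tacr1 (54.3 CPM) and Rgs9 (1050 CPM), and in the means of the interferon response list (2.49 log2 CPM) and the microglia list (4.89 log2 CPM). It was lowest in Fam196b (2.86 CPM) and in the mean of the GABA and glycine receptor list (5.54 log2 CPM).

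Q140 M1 was highest in Hoxa7 (0.472 CPM), Meg3 (7234 CPM) and Miat (153.1 CPM). It was lowest in Scg5 (150.0 CPM), in the mean of the glycolysis list (6.36 log2 CPM) and in that of the microglia list (4.18 log2 CPM). Q140 F4 was lowest in Pcdhgc3 (60.8 CPM), Ptprz1 (182.6 CPM) and the mean of the axon guidance list (4.74 log2 CPM). Q140 M2 was lowest in the mean of the activity-regulated list (3.64 log2 CPM), and Q140 M3 was highest in Kcnj13 (0.278 CPM).

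Among the other wild type libraries, F2 was highest in Cd200 (46.4 CPM) and Ece2 (44.1 CPM) and lowest in the mean of the list of CaM kinases, protein kinase C and phosphatases (7.19 log2 CPM). M4 was highest in Grm5 (633.5 CPM) and Wnt8b (5.13 CPM), M3 in Psmb10 (8.29 CPM) and Nagk (23.0 CPM), and M2 in Kcnj13 (4.64 CPM). F1 was lowest in Unc13b (26.5 CPM).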

How the results depend on the processing

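With edgeR on library totals without TMM, which changes the scaling alone and was added after seeing the data, 6180 genes were called, 5076 higher and 1104 lower in Q140. On deposited FPKM, where the test, the pseudocount and the filter differ as well, with a pseudocount of 0.1, 6030 genes were called, 4944 higher and 1086 lower in Q140; with a pseudocount of 1, 6074, 4992 and 1082; with no filter, 4465 rose and 1008 fell. Every gene called both in any of these 4 and with TMM counts kept its sign. Called genes numbered 3907 with RLE scaling, 4190 with DESeq2, 3297 with no count filter, 4081 with a stricter one, 2830 with the 15 libraries alone, 3152 without wild type F3, wild type M2 and Q140 M2 (chosen after seeing the data), 3795 without sex, 3844 and 3989 with plate column or row, and 3980 with limma-voom and the stem of the sample code in the descriptions as a random block. Leaving out 1 library gave 3278 to 4468 called genes (without Q140 M1 and without Q140 M4), 1542 to 2179 higher and 1661 to 2289 lower. The labels do not say that replicate numbers pair the samples, and the check did not show it: same-numbered libraries correlated at 0.023 to 0.417, 6 of 7 pairs over 0.1 and 2 best with their own number. With the replicate block 3749 genes were called.

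The sex difference was called for 1 gene, Gpr101, with the 15 libraries alone (adjusted p = 0.00579; log2 fold change 0.91 in females and 0.05 in males). Fos, not called, had a log2 fold change of -1e-04 with limma-voom, and the cause was not tested. Of 237 called genes named here 192 were called under every alternative that gave them an adjusted p, and 24 lost the call when 1 library was left out. Depth limits genes at or below about 1 CPM, such as Wt1, Hoxa7 and Kcnj13.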
